A study of Homo sapiens with 9 samples.

Results

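The extracellular matrix and matrix enzyme genes described here are the 123 protein-coding genes of 62700 annotated genes whose symbols name a collagen chain, laminin chain, fibrillin, fibulin, thrombospondin, lysyl oxidase, matrix metalloproteinase (MMP) or ADAMTS proteinase, together with the 6 single genes PXDN, F13A1, FN1, SPARC, VCAN and TGFBI. Membership was set by symbol alone, but the group was selected from the contrast of enhancer knockout (KO) with control, in which PXDN, COL5A1, F13A1 and EFEMP1 had been seen to change. The values of that contrast are therefore given as a description, with no p-values, and among the members only the difference between the 2 guides was tested.

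RNA was sequenced from HAL-01, a leukemia line of B cell precursors in which the fusion protein TCF3::HLF acts as a transcription factor. All 9 libraries came from HAL-01 cells with stable Cas9GFP, harvested on day 13. The control group SCR1 received a scrambled guide RNA and the groups sgRNA_96 and sgRNA_97 each received a guide against the TCF3::HLF-bound enhancer of MEF2C, with 3 libraries per group that carry the replicate numbers 1, 3 and 4. The labels do not say whether the replicates were separate cultures, so errors measure the spread between these libraries, which may be technical. A single line was used, the cells were sequenced in bulk, and the fraction of cells edited was not analysed here. In bulk RNA, fewer cells of a type and less RNA per cell cannot be told apart.

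Collagens, laminins and fibulins are secreted proteins that build fibrils, basement membranes and elastic fibres, and thrombospondins and SPARC bind to them. PXDN, F13A1 and the lysyl oxidases crosslink matrix proteins, whereas MMP and ADAMTS enzymes are zinc proteinases that cut them. In bone marrow most matrix is made by stromal, endothelial and bone cells rather than by B cell precursors, which bind to it through integrins and other receptors.

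Among the guides that the study lists for the MEF2C enhancer, 2 hold a copy of the HLF binding motif and are printed 5′ to 3′, with the motif in capitals, because the motif is searched for in the promoters of matrix genes further on. Both match hg38 without mismatch on the minus strand, E.1 at chr5:88825103-88825122 and E.2 at chr5:88825104-88825123, inside the gene MEF2C and outside every annotated exon. The labels do not say which of the study's guides are sgRNA_96 and sgRNA_97.
E.1: tagcaTTACATAAtacatgt
E.2: ttagcaTTACATAAtacatg

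The libraries held 15212462 to 29777361 estimated counts, the deepest being SCR1 replicate 1, and 14436 genes passed the count filter. Expression is given as CPM, counts scaled to a fixed library total with TMM factors, for comparisons between libraries, and as TPM, which also divides by transcript length, for comparisons between genes. MEF2C itself stood at 552 ± 13.4 CPM in SCR1 (SD, n = 3) and 509 ± 22.1 CPM in the 6 KO libraries, with overlapping ranges, and was not called (adjusted p = 0.062, edgeR quasi-likelihood test). The overlap came from sgRNA_97 replicate 1 at 553 CPM. The other KO libraries were at 495 to 510 CPM, below the lowest SCR1 library at 536 CPM. The study, which used DESeq2, reported MEF2C as down-regulated in its RNA-seq. It also reported lower MEF2C RNA and protein in separate assays. All 14 B lineage markers passed the filter, with a summed level of 6330 to 6507 CPM in SCR1 and 6941 to 7365 CPM in KO. In edgeR 5 of them were called higher and 10 had an unadjusted p under 0.05, and DESeq2 called 7. Over all genes edgeR called 20.7%, 10.1% higher, and the markers were not tested against this share. Of 14 stromal markers, 10 averaged under 1 CPM and 7 were at 0 in every library, including COL1A2, COL3A1, DCN and LUM, and none was called by edgeR, at an unadjusted p under 0.05 or by DESeq2. The summed stromal level was 27.6 to 33.5 CPM in SCR1 and 27.4 to 31.6 CPM in KO, most of it from PDGFRB. Endothelial markers summed to 35.4 to 40.7 CPM in SCR1 and 38.5 to 47.9 CPM in KO, nearly all from ESAM, and the 7 T lineage markers had no more than 0.0486 CPM together in any library. COL1A1, COL1A2 and COL3A1, of the stromal list, are also members of the matrix group. The part of these cell type markers in the matrix results was not tested.

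Most matrix genes were silent or nearly so in these cells. No counts were found in any library for 50 of the 123 genes, which at 174239760 counts over the 9 libraries allows up to 0.0172 CPM each (3 counts, counting error only). Among these 50, named after their values were seen, were FN1, VCAN and TGFBI, the chains COL1A2 and COL3A1 of the common fibrillar collagens I and III, LOX, THBS1, THBS2 and the laminin chains LAMB1 and LAMB3. A further 38 genes had between 1 and 56 counts in all libraries together and were not tested, COL1A1 with 37 and MMP9 with 2 among them. The remaining 35 genes passed the filter and 25 of them averaged at least 1 CPM. By family, 11 of 44 collagens passed, 2 of 12 laminins, 5 of 9 fibrillins and fibulins, 1 of 4 thrombospondins, 3 of 5 lysyl oxidases, 7 of 24 genes with an MMP symbol, 3 of 19 ADAMTS genes and 3 of the 6 single genes.

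A few genes carried most of the matrix RNA. In SCR1 cells EFEMP1 led with 107 TPM, followed by MMP25 with 93.6 TPM, PXDN with 77.8 TPM and F13A1 with 53.8 TPM. LAMC1 reached 31.3 TPM, SPARC 26.7 TPM, MMP24OS 24.4 TPM, COL27A1 18.9 TPM and COL5A1 8.36 TPM. THBS3, the leading thrombospondin, stood at 5.45 TPM, while the leading lysyl oxidase LOXL3 (1.27 TPM) and the leading ADAMTS gene ADAMTS6 (0.888 TPM) were near 1 TPM. Among the fibrillins and fibulins alone the levels ranged from 0 in FBLN5 to those of EFEMP1. MMP24OS belongs to the group by its letters only: it is transcribed from the strand opposite MMP24, which had 2 counts in all 9 libraries, and it is not a metalloproteinase.

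**Figure D1:**
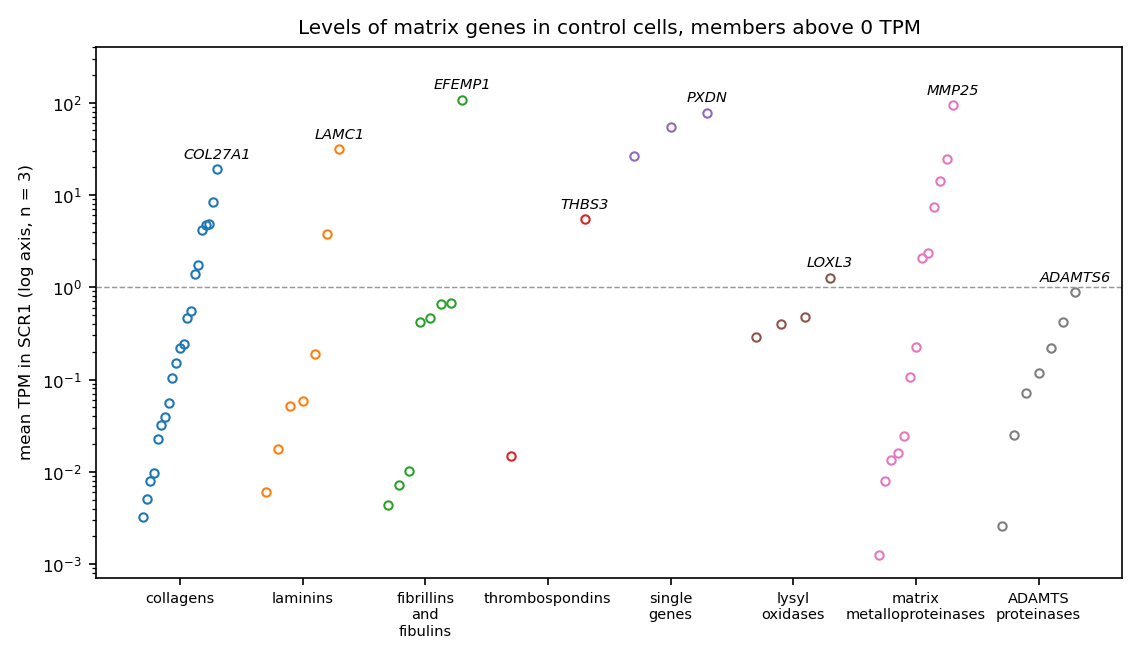
Mean TPM in the 3 SCR1 libraries (log axis) of every matrix gene above 0 TPM, by family, with the highest gene of each family named; the dashed line marks 1 TPM. EFEMP1 (107 TPM), MMP25 (93.6 TPM) and PXDN (77.8 TPM) lie far above most members of any family.

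In the KO libraries 11 matrix genes were called, meaning an adjusted p under 0.05 over all genes, 9 of them higher and 2 lower. COL5A2, among the 9, passed the count filter only through KO libraries. Across all 14436 genes 20.7% were called, 10.1% higher and 10.6% lower, and since the group was selected on this contrast nothing is read from the 31.4% called among its 35 tested genes. The summed level of all 123 genes was 1305 ± 25.8 CPM in SCR1 (SD, n = 3) and 1745 ± 32.7 CPM in KO (SD, n = 6). Few genes held much of these sums. Mean CPM in SCR1 and KO was 354 and 523 for PXDN, 151 and 279 for F13A1 and 218 and 328 for MMP25. EFEMP1 went the other way, with 145 and 78.1. PXDN, F13A1, COL5A1 and EFEMP1 are genes on which the group was selected, so nothing is read from the sums. The median log2 fold change of the 35 tested genes was 0.10, against 0.00 over all genes. Values of KO and SCR1 did not overlap for 12 of the 35 tested members, 10 of them called, and for 20.3% of all tested genes, and nothing is read from this count either.

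**Figure D2:**
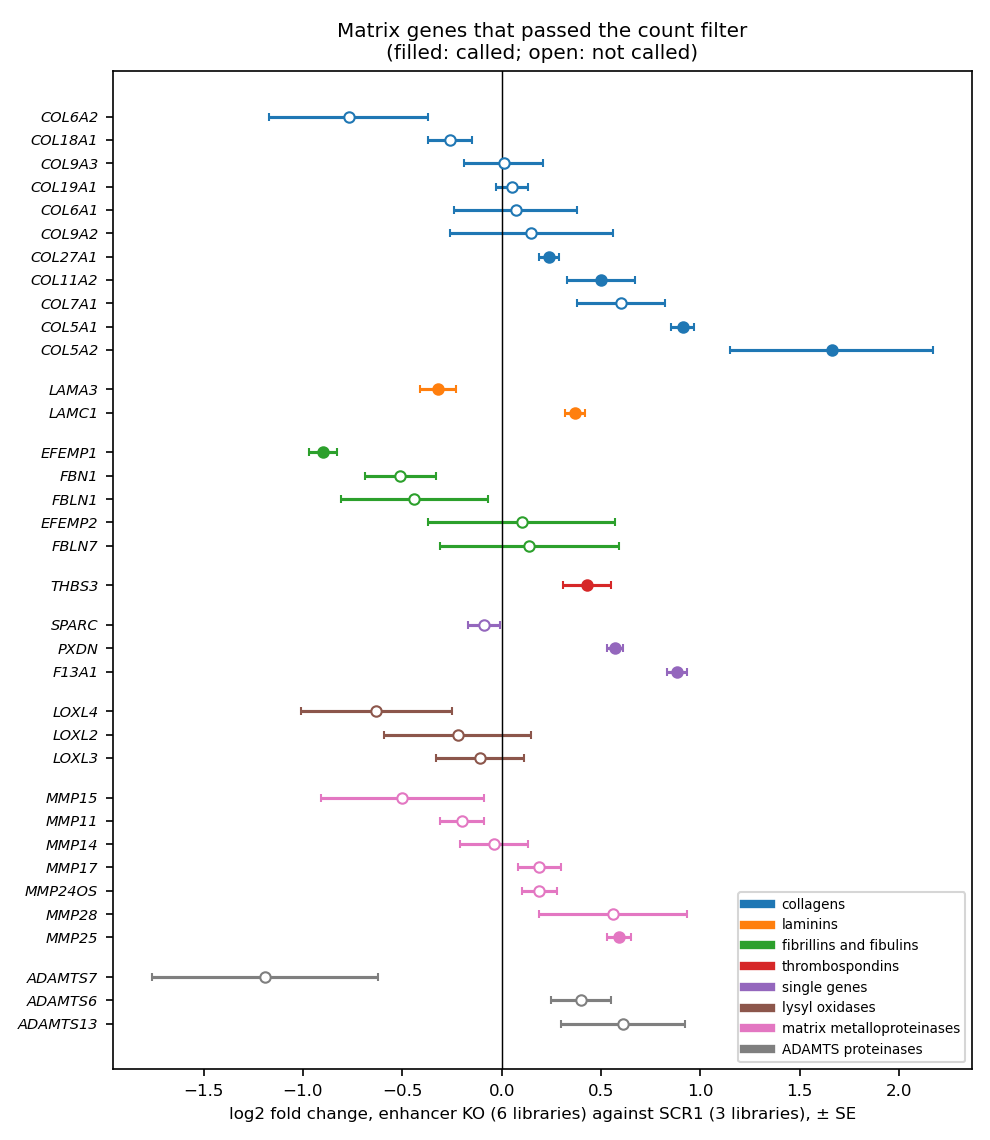
Log2 fold change (± SE) of enhancer KO (6 libraries) against SCR1 (3 libraries) for the 35 matrix genes that passed the count filter, coloured by family; filled points were called and open points were not. COL5A1 (0.91) and F13A1 (0.88) lie to the right with short error bars, EFEMP1 (-0.90) to the left, and COL5A2 (1.66) and ADAMTS7 (-1.19) have long error bars.

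The crosslinking enzymes PXDN and F13A1 were both higher in KO. PXDN (chr2:1631887-1744852 on hg38, minus strand) encodes peroxidasin, which joins collagen IV molecules in basement membranes. It stood at 357, 355 and 350 CPM in SCR1 replicates 1, 3 and 4, at 525, 530 and 512 CPM with sgRNA_96 and at 527, 509 and 537 CPM with sgRNA_97. The KO libraries thus lay in a narrow band well above the controls, with a log2 fold change of 0.57 ± 0.04 (SE) or 1.48-fold. F13A1 (chr6:6144084-6321013, minus strand) encodes the catalytic A subunit of coagulation factor XIII, a transglutaminase that crosslinks fibrin and is known from monocytes, macrophages and platelets. Its values were 162, 150 and 142 CPM in SCR1, 273, 272 and 286 CPM with sgRNA_96 and 300, 259 and 284 CPM with sgRNA_97. Every KO library was far above every control, with a log2 fold change of 0.88 ± 0.05 (1.84-fold). Nearly all counts of F13A1 (99.8% in SCR1, 99.9% in KO) belonged to the coding transcript F13A1-201, and PXDN-201 took 95.2% and 94.5% of those of PXDN.

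Markers of the cell types known for F13A1 were measured alongside it. Of 12 monocyte or macrophage markers, 9 averaged under 1 CPM, 4 were at 0 in every library (FCGR3A, CD163, FCN1 and VCAN), and their sum was 26.6 to 28.2 CPM in SCR1 and 30.2 to 36.6 CPM in KO. ITGAM (log2 fold change 0.74 ± 0.11) and MPO (1.08 ± 0.19) were called higher. CSF1R, the most abundant of the list, was at 17.2 CPM in SCR1 and 14.8 CPM in KO and was not called, while CD14 and LYZ had 45 and 53 counts in all libraries together. In edgeR all 3 tested markers had an unadjusted p under 0.05. Of 9 megakaryocyte or platelet markers, 8 averaged under 1 CPM, PF4, PPBP, GP1BA and TUBB1 were at 0, and the sum was 3.39 to 4.16 CPM in SCR1 and 2.37 to 3.97 CPM in KO, with no marker called by edgeR, at an unadjusted p under 0.05 or by DESeq2. VCAN, of the monocyte list, is also a member of the matrix group. Whether these cell types had a part in the F13A1 difference was not tested.

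The lysyl oxidases, the other crosslinking family, were barely expressed, and none of the 3 tested was called by edgeR, at an unadjusted p under 0.05 or by DESeq2. LOXL3, the highest, averaged 2.06 ± 0.188 CPM in SCR1 and 1.90 ± 0.316 CPM in KO. Its log2 fold change was -0.11 ± 0.22, and the libraries of both groups overlapped. It shares sequence on the opposite strand with DOK1 and HTRA2, which were more abundant, and the use of strand in counting is not given in the sources used here.

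Among collagens 4 of 11 tested genes were called, all higher. COL5A1 (chr9:134641803-134844843, plus strand) encodes the alpha 1 chain of type V collagen, a minor fibrillar collagen that controls the width of collagen I fibrils. It was at 48.5, 50.4 and 46.7 CPM in SCR1, at 92.7, 92.5 and 81.6 CPM with sgRNA_96 and at 97, 86.0 and 96.9 CPM with sgRNA_97. The lowest KO library was far above the highest control, for a log2 fold change of 0.91 ± 0.06 (1.88-fold). COL5A1-201 took 97.1% of its counts in SCR1 and 96.1% in KO, and the antisense gene annotated across it had no counts. The chain that pairs with it in type V collagen, COL5A2, was called with a larger log2 fold change of 1.66 ± 0.51 but at a very low level. COL5A2 had 4, 3 and 3 counts in the SCR1 libraries, 11, 7 and 11 with sgRNA_96 and 4, 12 and 6 with sgRNA_97, which is 0.15 ± 0.0189 CPM in SCR1 and 0.481 ± 0.181 CPM in KO. Its call was lost when any SCR1 library was left out and without the count filter. COL5A2 passed that filter only through KO libraries, where it was higher, so nothing is read from its call. It had a value in 15 of the 19 alternatives. The third chain of type V collagen, COL5A3, had no counts.

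COL27A1 (chr9:114155537-114312511, plus strand), a fibrillar collagen of cartilage and other tissues, was the most abundant collagen and rose slightly. It was at 75.7, 69.1 and 78.2 CPM in SCR1, 92.6, 88.2 and 86.3 CPM with sgRNA_96 and 85.2, 84.3 and 90.2 CPM with sgRNA_97. The groups did not overlap, and the log2 fold change was 0.24 ± 0.05 (1.18-fold). The coding transcript COL27A1-201 held 79.5% ± 0.845 of its counts in SCR1 and 82.8% ± 1.14 in KO, while a transcript annotated as subject to nonsense-mediated decay held 13.8% ± 1.11 and 11.2% ± 1.59. When the length of the transcripts was taken into account its log2 fold change was 0.13 and it was not called.

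COL11A2, a chain of the cartilage collagen XI, averaged 4.61 ± 0.520 CPM in SCR1 and 6.49 ± 1.26 CPM in KO, with a log2 fold change of 0.50 ± 0.17. Its groups overlapped, since sgRNA_97 replicate 1 was at 4.24 CPM and SCR1 replicate 4 at 5.06 CPM. The call was lost in 12 of the 19 alternatives. Among these were leaving out any SCR1 library, sgRNA_96 replicate 3 or 4, or sgRNA_97 replicate 3 or 4. The other 7 tested collagens had log2 fold changes from -0.77 in COL6A2 to 0.60 in COL7A1 and were not called. COL19A1, the most abundant of them, ranged from 23.4 to 27.1 CPM in SCR1 and from 24.7 to 30.1 CPM in KO.

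**Figure D3:**
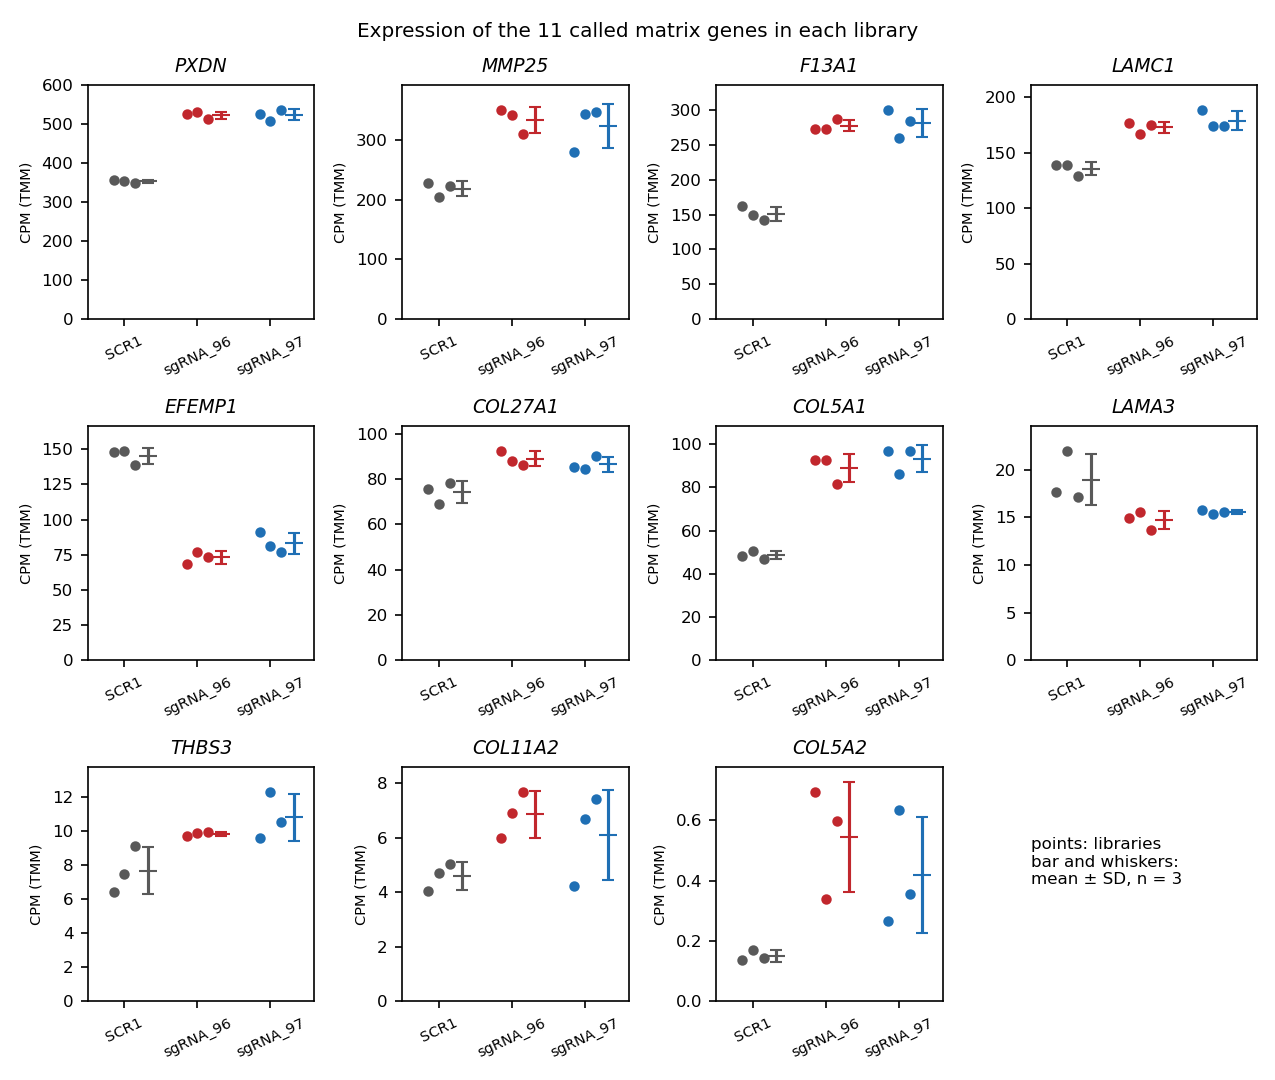
CPM of the 11 called matrix genes in each of the 9 libraries, with mean ± SD (n = 3) beside each group; every axis starts at 0. Except for COL11A2, the SCR1 points and the points of both guides do not overlap, and only EFEMP1 and LAMA3 are higher in SCR1.

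Both laminin chains that passed the filter were called, in opposite directions. LAMC1 (chr1:183023420-183145592, plus strand) encodes the gamma 1 chain found in most laminins. It was at 139, 139 and 129 CPM in SCR1, 177, 167 and 175 CPM with sgRNA_96 and 189, 174 and 174 CPM with sgRNA_97, all KO libraries being higher, with a log2 fold change of 0.37 ± 0.05 (1.30-fold). It was not called with limma on TPM, where the log2 fold change was 0.38 to 0.39. LAMA3, the alpha 3 chain known from epithelial basement membranes, was at 17.7, 22.0 and 17.1 CPM in SCR1 against 13.7 to 15.8 CPM in KO. Its log2 fold change was -0.32 ± 0.09, and the call was lost without SCR1 replicate 3, the highest library. No beta chain passed the filter: LAMB1, LAMB3 and LAMB4 had no counts and LAMB2 had 3.

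The LAMA3 counts were also divided differently among its transcripts from library to library. LAMA3-202, a coding transcript, took 49.7% to 55.7% of the counts in SCR1 but from 0 to 48.6% in KO. LAMA3-203, another coding transcript, had none in SCR1 and in sgRNA_97 replicates 3 and 4, and between 27.0% and 53.7% in the other 4 KO libraries. LAMA3-210, which has no defined coding sequence, took 37.7% ± 10.9 in SCR1 and 34.7% ± 22.6 in KO. On the TPM scale, which divides by these transcripts' lengths, LAMA3 averaged 3.79 in SCR1 and 4.04 in KO, so the direction of its difference reversed.

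EFEMP1 was the only other member called lower. It lies at chr2:55865967-55924139 on the minus strand and encodes fibulin-3, a secreted glycoprotein of elastic tissues and basement membranes. Its values were 148, 149 and 139 CPM in SCR1, 68.5, 77.2 and 73.6 CPM with sgRNA_96 and 91.3, 81.0 and 76.9 CPM with sgRNA_97. Every KO library was well below every control, with a log2 fold change of -0.90 ± 0.07, or 0.537 of the control level. In TPM it went from the first place among matrix genes in SCR1 (107) to the fourth in KO (58.8), behind MMP25 (148), PXDN (119) and F13A1 (99.6). The main transcript EFEMP1-201 held 64.7% ± 5.15 of its counts in SCR1 and 60.7% ± 4.24 in KO. The related FBN1, the main protein of elastic microfibrils, was at 3.54 to 3.87 CPM in SCR1 and 2.14 to 3.27 CPM in KO without overlap (log2 fold change -0.51 ± 0.18) but was not called, and FBLN1, FBLN7 and EFEMP2, which averaged under 1 CPM, were not called.

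**Figure D4:**
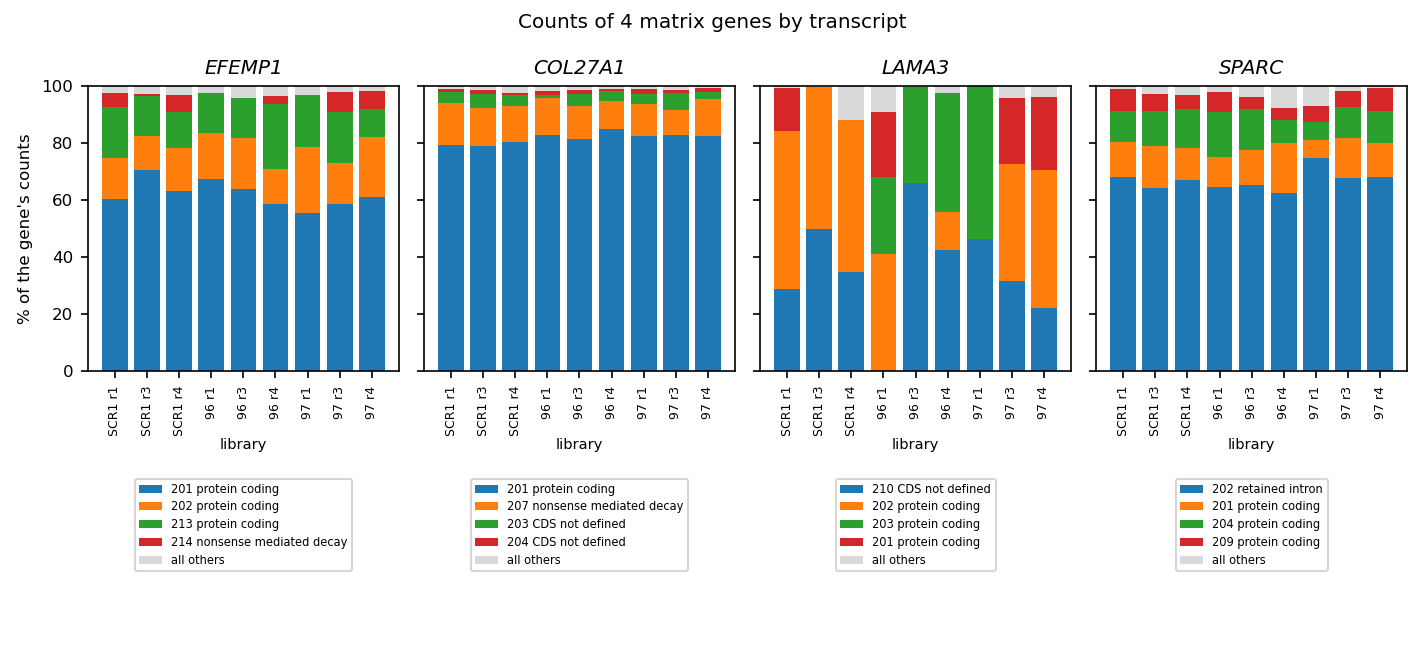
Share of the estimated counts of EFEMP1, COL27A1, LAMA3 and SPARC assigned to their leading transcripts in each library, as percent of the gene's counts, with annotated transcript types; r1, r3 and r4 are replicates. The shares of LAMA3 vary most between libraries, LAMA3-203 being at 0 in SCR1, and the retained-intron transcript SPARC-202 leads in every library.

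Of the proteinases only MMP25 was called. It lies at chr16:3046062-3060726 on the plus strand and encodes a metalloproteinase anchored to the cell surface by a glycolipid, known from neutrophils. It was at 227, 204 and 223 CPM in SCR1, 350, 341 and 309 CPM with sgRNA_96 and 280, 342 and 346 CPM with sgRNA_97. All KO libraries were higher, sgRNA_97 replicate 1 being the lowest of them, and the log2 fold change was 0.59 ± 0.06 (1.5-fold). Its antisense gene MMP25-AS1, which overlaps it, was at 24.9 ± 1.36 CPM in SCR1 and 28.7 ± 3.92 CPM in KO and was not called. MMP17, the other glycolipid-anchored member of the family, was at 16.6 to 22.1 CPM in SCR1 and 17.3 to 24.3 CPM in KO and was not called. MMP11, MMP14, MMP15 and MMP28 were not called either, nor was MMP24OS at 24.6 ± 1.09 CPM in SCR1 and 28.0 ± 3.22 CPM in KO, although it was called without sgRNA_96 replicate 4 (log2 fold change 0.25). The gelatinases MMP2 and MMP9 had 5 and 2 counts in all libraries together.

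ADAMTS genes were expressed weakly and none of the 3 tested was called by edgeR or DESeq2, with 1 at an unadjusted p under 0.05 in edgeR. ADAMTS6, a secreted proteinase with thrombospondin repeats, was at 3.73, 5.07 and 3.97 CPM in SCR1 and at 4.77 to 6.40 CPM in KO, with a log2 fold change of 0.40 ± 0.15. It was called without SCR1 replicate 3, the control that overlapped the KO libraries, at a log2 fold change of 0.53. ADAMTS13, the proteinase that cuts von Willebrand factor, was at 0.684 to 0.993 CPM in SCR1 and 1.01 to 1.74 CPM in KO without overlap and was not called.

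Of the matricellular proteins, THBS3 was called higher and SPARC was not called. THBS3 (chr1:155195588-155209051, minus strand) encodes a thrombospondin known from bone and cartilage. It was at 6.42, 7.47 and 9.12 CPM in SCR1, 9.71, 9.87 and 9.93 CPM with sgRNA_96 and 9.60, 12.3 and 10.5 CPM with sgRNA_97, with a log2 fold change of 0.43 ± 0.12. The gap between the groups was small, and the call was lost without SCR1 replicate 1 or 3. THBS3 overlaps MTX1 on the opposite strand, which was more abundant and called lower (30.8 ± 1.61 CPM in SCR1, 25.6 ± 2.57 CPM in KO). SPARC, a collagen-binding glycoprotein, was at 22.8, 19.9 and 19.0 CPM in SCR1 and 18.3 to 20.5 CPM in KO, with overlapping groups and a log2 fold change of -0.09 ± 0.08. About 66.3% ± 2.02 of SPARC counts in SCR1 and 67.2% ± 4.33 in KO belonged to SPARC-202, a transcript with a retained intron, so the level of SPARC coding transcripts was lower than its gene total.

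Each guide against SCR1 called 8 matrix genes, against 11.2% of all genes for sgRNA_96 and 15.1% for sgRNA_97. MMP25, F13A1, PXDN, COL5A1, LAMC1, COL27A1 and EFEMP1 were called with both guides, LAMA3 with sgRNA_96 and THBS3 with sgRNA_97. COL11A2 and COL5A2 were called with neither guide alone. The guides share the 3 control libraries, so their values are set side by side without a test of their likeness. COL5A1 had a log2 fold change of 0.87 ± 0.07 with sgRNA_96 and 0.94 ± 0.07 with sgRNA_97. F13A1 had 0.87 ± 0.06 and 0.89 ± 0.06, PXDN 0.56 ± 0.04 and 0.57 ± 0.04, and MMP25 0.61 ± 0.08 and 0.57 ± 0.08. EFEMP1 had -0.99 ± 0.07 and -0.81 ± 0.07.

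The direct comparison of sgRNA_97 with sgRNA_96 was not used to choose the genes and was tested. None of the 35 tested members was called by edgeR or in any alternative run, DESeq2 included, and across all genes 0.0208% were called. At an unadjusted p under 0.05 there were 2 members. EFEMP1 was higher with sgRNA_97 by 0.18 on the log2 scale (95% interval 0.03 to 0.33, unadjusted p = 0.0192, adjusted p = 1.00, edgeR quasi-likelihood test), though the highest sgRNA_96 library (77.2 CPM) lay just above the lowest sgRNA_97 library (76.9 CPM). LOXL2, at about 1 CPM or less in every library, was lower with sgRNA_97, with a log2 difference of -0.98 (interval -1.85 to -0.11, unadjusted p = 0.0292, adjusted p = 1.00). Its annotated exons overlap those of ENTPD4 on the same strand and LOXL2-AS1 on the other. How reads were divided between these genes was not examined. For the other leading genes the interval of the difference was narrow: -0.09 to 0.10 for PXDN, -0.11 to 0.15 for F13A1, -0.08 to 0.21 for COL5A1, -0.07 to 0.17 for LAMC1 and -0.21 to 0.11 for MMP25. For low genes it was wide, at -0.58 to 0.26 for COL11A2 and -1.43 to 0.77 for COL5A2, so differences within these intervals could not be told from 0 with 3 libraries a group.

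**Figure D5:**
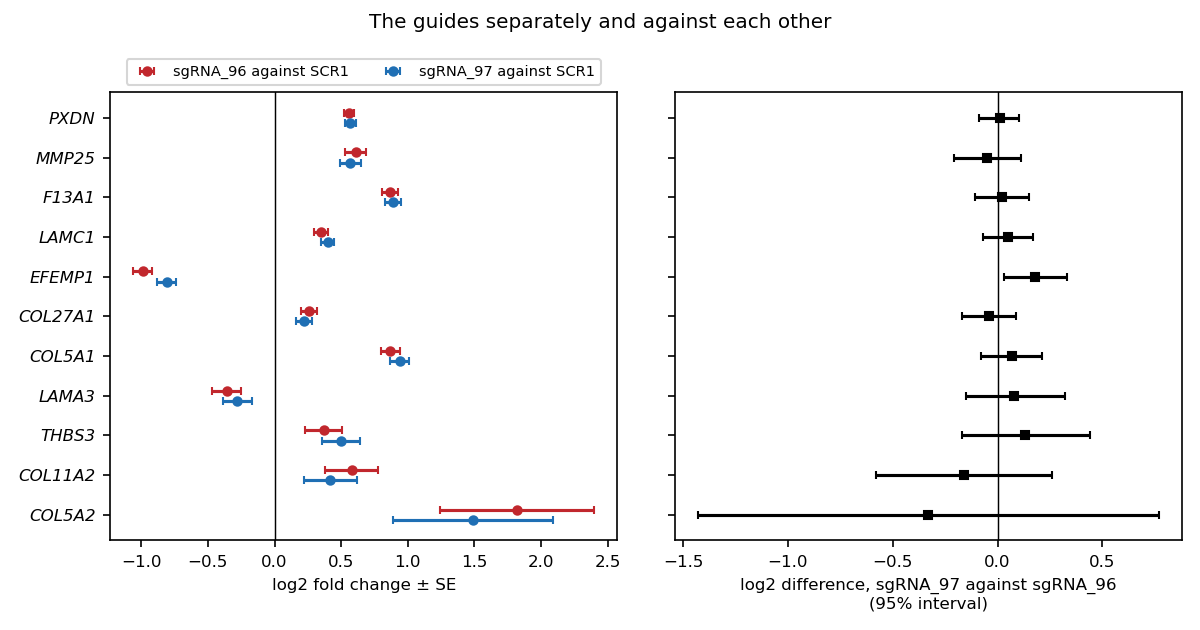
Left, log2 fold change (± SE) of the 11 called matrix genes for sgRNA_96 (red) and sgRNA_97 (blue) against the same 3 SCR1 libraries; right, log2 difference of sgRNA_97 from sgRNA_96 with its 95% interval. Before adjustment over all genes, EFEMP1 (0.03 to 0.33) is the only gene plotted whose interval does not include 0, and that of COL5A2 is the widest.

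The promoters of the changed genes were examined for the motif printed in the guides, because the KO was aimed at such a site. That site lies in an enhancer, and the study found only a small part of the motif-bearing regions bound by TCF3::HLF in promoters. RefSeq promoter windows on GRCh38.p14 (250 bases before to 50 after a start) were found for 88 of the 123 genes, in 111 windows, and for 8 of the 11 called genes, in 13 windows. EFEMP1, MMP25 and COL5A2 had none. The HLF motif, searched as TTACGTAA, TTATGTAA or TTACATAA on both strands, occurred in 1 of the 111 windows (COL15A1) and in 1.01% of all 35116 windows. The MEF2 motif occurred in 4 windows (COL10A1, COL13A1, COL17A1 and FBLN5) against 2.99% of all. Neither was found in a window of a called gene, which says only that these letters are not in these windows. The E-box CANNTG, the general site of TCF3 and related proteins, was in 59.5% of the members' windows and 68.7% of all. Per the study, the fusion protein does not carry the DNA binding domain of TCF3. No matches of different motifs overlapped in the members' windows.

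The windows of PXDN and COL5A1 are printed, for the bases before the start and with E-boxes in capitals, because these genes were called with both guides and their windows differ in E-boxes. That of PXDN, chr2:1744516-1744765 on the minus strand, holds 3 E-boxes and that of COL5A1, chr9:134641553-134641802 on the plus strand, holds none. Their GC content was 78.4% and 74.0%, against a median of 58.0% over all windows. The window of F13A1 held 5 E-boxes at 55.6% GC.
PXDN: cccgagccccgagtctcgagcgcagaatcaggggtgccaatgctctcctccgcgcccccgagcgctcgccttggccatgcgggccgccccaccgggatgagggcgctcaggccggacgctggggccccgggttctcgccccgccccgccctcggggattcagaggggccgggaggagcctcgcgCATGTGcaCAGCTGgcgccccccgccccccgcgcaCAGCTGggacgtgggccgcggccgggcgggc
COL5A1: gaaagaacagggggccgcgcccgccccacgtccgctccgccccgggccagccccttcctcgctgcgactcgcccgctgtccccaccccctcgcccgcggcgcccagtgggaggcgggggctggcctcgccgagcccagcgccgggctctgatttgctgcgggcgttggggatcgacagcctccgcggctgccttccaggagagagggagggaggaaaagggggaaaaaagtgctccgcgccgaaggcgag

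Other genes of matrix assembly and sensing were counted from 5 lists of 155 non-members. Of 71 tested, 18 were called higher and 6 lower, 24 in all. DDR2, among the 18, passed the count filter only through KO libraries. Without SCR1 replicate 1, 15 of 75 tested were called. Leaving out that library also lowered the calls over all genes, from 2984 of 14436 to 1503 of 14731. In the main fit 20.7% of all genes tested were called, 10.1% higher and 10.6% lower. The lists were not tested against this share, which goes with each count of the main fit given for them here. Among factors that modify and assemble collagen and elastic fibres, 6 of 24 tested were called, 4 higher and 2 lower. P3H3, a collagen prolyl hydroxylase family member, had a log2 fold change of 0.49 ± 0.13, and LTBP4 and LTBP3, which bind latent TGF-beta to the matrix, had 0.37 ± 0.08 and 0.28 ± 0.09. P4HB, the abundant partner subunit of prolyl 4-hydroxylase, was lower at -0.25 ± 0.05, from 294 ± 12.5 CPM in SCR1 to 248 ± 10.9 CPM in KO.

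Of 9 tested inhibitors and activators of the proteinases 3 were called. The broad proteinase inhibitor A2M was called higher (12.3 ± 0.977 CPM in SCR1, 20.2 ± 2.99 CPM in KO, log2 fold change 0.71 ± 0.11). BSG, an inducer of MMP expression (-0.18 ± 0.06), and the proprotein convertase PCSK6 (-0.16 ± 0.05) were called lower. None of the 7 tested membrane ADAM proteinases was called by edgeR or DESeq2, and 2 had an unadjusted p under 0.05 in edgeR.

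Of 19 tested receptors for matrix 8 were called higher and 1 lower. DDR2, among the 8, was at 0.339 to 0.513 CPM in SCR1 and 0.728 to 1.09 CPM in KO. It passed the count filter only through KO libraries, where it was higher, so nothing is read from its call. The laminin-binding integrin chain ITGA6 had a log2 fold change of 0.48 ± 0.08, from 23.1 ± 1.15 CPM in SCR1 to 32.1 ± 2.69 CPM in KO. The inhibitory collagen receptor LAIR1 had 0.42 ± 0.05, from 112 ± 3.70 to 149 ± 7.26 CPM, and ITGA8, a chain of the nephronectin and fibronectin receptor, had 0.31 ± 0.06. The heparan sulfate proteoglycan SDC1 was called lower at -0.42 ± 0.07. The summed level of the 35 receptors was 1044 to 1101 CPM in SCR1 and 1174 to 1271 CPM in KO.

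Of 12 tested proteoglycans and other matrix glycoproteins 5 were called higher and 1 lower, and 45 of the 55 listed averaged under 1 CPM. ECM2 had the largest difference, 2.47 ± 0.401 CPM in SCR1 and 5.98 ± 0.848 CPM in KO, a log2 fold change of 1.26 ± 0.17. CCN2, the connective tissue growth factor, had 0.57 ± 0.07 and the secreted glycoprotein ECM1 0.54 ± 0.09. The beta-galactoside-binding lectin LGALS1 was called lower at -0.42 ± 0.10.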

How the data were processed

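Per the labels and the study's methods, poly(A) libraries (TruSeq) were aligned with STAR to hg38 (GRCh38) and quantified with Salmon 1.10.1. The authors deposited estimated counts per transcript, not normalized, and TPM. Salmon divides reads shared between transcripts by likelihood, which affects overlapping genes. All 252835 transcripts matched GENCODE release 44. Groups were taken from sample titles.

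Counts were summed per gene, rounded, filtered with filterByExpr (minimum count 10), scaled by TMM and tested with edgeR 4.0.16 (quasi-likelihood, R 4.3.3) with Benjamini-Hochberg adjustment over 14436 genes and a threshold of 0.05. For KO against SCR1 the 6 libraries of both guides were pooled, and the guides were separated in a fit with 3 groups. DESeq2 1.42.0, limma 3.58.1 on log2(TPM + 1), a gene length offset, other filters and leaving out each library were alternatives. On simulated counts with 200 changed genes of 14436 at a fold of 2, 184 were called in the KO comparison, none in the wrong direction, with 9 false calls. The changed genes were drawn from those averaging above 1 CPM. Smaller changes, and changes in genes below that level, were not simulated. No replicate pair was a duplicate: counts differed by at least 4.31 times the chi-square that sampling alone gives.

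Members and lists were chosen with earlier results of these data known. Named members were PXDN, COL5A1, F13A1 and EFEMP1, every member called, the 8 with the highest TPM and the highest of each family; from each list up to 4 called genes with the largest change and a mean of at least 1 CPM were named. Other genes were named after their values were seen. Protein sequences were not used here.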

Additional observations from a re-analysis of the deposited data

Results flagged for a closer look

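One library stood apart by Dixon's test among the 6 KO libraries, which was run at both ends for 15 named members, 30 tests in all, and chance alone marks about 1 in 20 groups. THBS3 was at 12.3 CPM in sgRNA_97 replicate 3, against 9.60 to 10.5 CPM in the other 5 KO libraries.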

How the results depend on the processing

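The matrix genes called in KO numbered 11, and 8 to 12 when a library was left out. Without sgRNA_97 replicate 4 the calls were 8 higher and 3 lower, and without sgRNA_97 replicate 1 they were 10 higher and 2 lower. With a gene length offset there were 6, and with limma on log2(TPM + 1), on log2(TPM + 0.1) or without the filter there were 5. Calls over all genes moved as well. They were 2984 of 14436 in the main fit. Without a library they ranged from 1503 (SCR1 replicate 1 left out) to 3547 (sgRNA_96 replicate 1 left out). With the length offset they were 1526. With limma they were 1240, 1246 and, of 27291 genes without the filter, 648. The matrix genes called for each guide numbered 8, and 6 to 9 without a library, and 5 with the length offset and with each limma alternative. Over all genes, sgRNA_96 calls fell from 1615 to 661 with the length offset and to 201 to 451 with limma. For sgRNA_97 they fell from 2181 to 927 and to 311 to 706. The pathway list genes called numbered 24, then 14 with the length offset, 10, 11 and 7 with limma in that order, and 15 to 28 without a library, the lowest being without SCR1 replicate 1. The calls over all genes in these runs are those given above for KO. PXDN, COL5A1, F13A1, MMP25 and EFEMP1 were called under all 19 alternatives, whereas LAMC1 was not called with limma (3 alternatives) and COL27A1, COL11A2, COL5A2 and THBS3 were called neither with limma nor with the length offset. LAMA3 reversed under those, at 0.08 with the length offset and 0.06, 0.07 and 0.06 with limma. The cause was not tested. DESeq2 gave no adjusted p for COL5A2. Between the guides 0 members were called under every alternative. Libraries with the same replicate number did not deviate together (correlations -0.066 to 0.055), and the main fits did not pair them. With 3 libraries a group, these correlations cannot tell whether libraries of the same number were handled together. With the replicate block 11 members were called in KO, 9 and 8 with the guides, and 22 list genes. Of the 88 members not tested, 50 had no counts and 38 had at most 56 in all libraries together.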
